A study of Rattus norvegicus with 15 samples.

Results

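The genes described here are the immediate early genes Fos (ENSRNOG00000008015), Jun (ENSRNOG00000026293), Junb (ENSRNOG00000042838) and Egr1 (ENSRNOG00000019422), 4 genes set against tables of 30560 gene identifiers. They were taken by identifier. The count tables carry Ensembl identifiers without names. The symbols are the ones given with the identifiers in the definition of the set, and no table used here checks that pairing. Counts of Fos, Jun and Egr1 were used in all 15 libraries, and Junb was not analysed here.

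Immediate early genes are transcribed within minutes of a stimulus, without new protein synthesis, and their mRNAs are short-lived. Fos and Jun proteins, together with relatives such as JunB, form the AP-1 transcription factor, and Egr1 is a zinc-finger transcription factor. Growth factors, calcium and stress act on these genes through MAP kinases and through the factors SRF and CREB, and in glia they are widely used as readouts of recent stimulation.

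The cells were primary oligodendrocytes, the myelin-forming cells of the central nervous system. They were grown from precursors shaken off mixed glial cultures of newborn Sprague-Dawley rat cortex and matured in defined medium. There were 5 groups of 3 libraries: input RNA from control cells, input RNA from cells given oligomeric amyloid-β (the 1–42 peptide), RNA immunoprecipitated with hnRNP A2 from each of those treatments, and RNA from an IgG control immunoprecipitation labelled as a pool of both treatments. The names of the deposited IgG files carry an amyloid-β mark that this label does not have, so which treatment the IgG material came from is not certain, and with it what control hnRNP A2 against IgG compares. Replicates are numbered 2, 3 and 4 in the titles, and the design text calls them biological; dose and duration of amyloid-β are not in the labels. The study asked which RNAs hnRNP A2, an RNA-binding protein known for mRNA transport in these cells, holds, and whether amyloid-β alters this. Markers of oligodendrocytes and of other glia, and lists of further immediate early genes, could not be matched to identifiers here, so neither the labelled cell type nor the wider response was checked. In bulk RNA, fewer cells of a type and less RNA per cell cannot be told apart.

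Gene counts came to 14773400 to 25751522 per input library and 28056346 to 33168494 per hnRNP A2 library. The IgG libraries held 81463 (replicate 2), 4096829 (replicate 3) and 1895870 (replicate 4). Among the 12 input and hnRNP A2 libraries the lowest count of these genes was 239, for Egr1 in control input replicate 4. IgG replicate 2 held 9 Fos counts, 33 Jun counts and 1 Egr1 count, so its levels are loose. For Egr1 there, 9.77 CPM had an exact 95% Poisson interval of 0.247 to 54.5 CPM, which covers counting error only. CPM, the standard per-library scaling of counts, is taken here after TMM scaling over the 15 libraries. It is a level relative to most genes of a library, neither a yield nor a plain share of the library, and compares libraries within a gene and not genes with each other.

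The Egr1 promoter is printed because SRF control of Egr1 is a textbook case of immediate early induction, the response that amyloid-β was examined for here. It is the RefSeq window at chr18:26736828-26737127 of build GRCr8, plus strand, from 250 bases before to 50 after the transcription start. Capitals mark CArG boxes, the SRF site, and the core of the cAMP response element, TGACG or its reverse complement.

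Egr1: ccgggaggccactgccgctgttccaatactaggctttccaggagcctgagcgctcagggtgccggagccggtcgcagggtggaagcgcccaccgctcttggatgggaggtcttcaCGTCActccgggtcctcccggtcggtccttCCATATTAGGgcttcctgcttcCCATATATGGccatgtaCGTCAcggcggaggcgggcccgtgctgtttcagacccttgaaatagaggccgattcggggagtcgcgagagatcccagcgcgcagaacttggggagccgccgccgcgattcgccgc

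On either strand there were 2 CArG boxes, CCATATTAGG from -105 to -96 and CCATATATGG from -83 to -74. There were also 2 TGACG cores, from -135 to -131 and from -66 to -62, and none of these 4 matches overlap. Of 33469 RefSeq rat promoters of the same length, 1.64% held a CArG box and 7 held 2 or more; 21.2% held a TGACG core and 4.96% held 2 or more. The full element TGACGTCA (1.83% of promoters), the AP-1 letters TGANTCA (7.33%) and the EGR letters GCGNGGGCG (4.98%) did not occur in this window. These are matches of letters and not measured binding.

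Fos, the inducible partner of Jun in AP-1, showed no difference past the threshold between amyloid-β and control in input. It stood at 144, 84.4 and 87.3 CPM in control input replicates 2, 3 and 4, and at 166, 112 and 99.2 CPM in the amyloid-β input replicates of those numbers. The treated library was the higher one in each pair, by 1.15-, 1.32- and 1.14-fold, while the groups overlapped, since control replicate 2 lay above amyloid-β replicates 3 and 4. The fitted difference was 1.19-fold (log2 0.25, SE 0.31, 95% interval 0.735- to 1.92-fold, edgeR adjusted p = 0.954).

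Jun, the DNA-binding partner of Fos, did not pass the test for amyloid-β in input either, and its difference leaned on 1 library. Control input read 187, 180 and 199 CPM in replicates 2, 3 and 4, and amyloid-β input read 204, 316 and 221 CPM. Each treated library lay above each control library, with replicate 3 far above the rest. The fit gave 1.31-fold (log2 0.39, SE 0.29, interval 0.839 to 2.04, edgeR adjusted p = 0.954). Without amyloid-β input replicate 3 the log2 difference of Jun was 0.15, below those of Fos (0.30) and Egr1 (0.40) in the same libraries, and over all libraries left out in turn it ranged from 0.15 to 0.54. Groups separated in this direction without overlap at 3.89% of the genes tested in this comparison.

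Egr1 was at 29.7, 20.5 and 24.1 CPM in control input replicates 2, 3 and 4 and at 40.5, 20.6 and 26.0 CPM in the amyloid-β ones. The pair of number 3 differed by 1.01-fold, which is level within counting error, and the groups overlapped. The fit gave 1.16-fold (log2 0.22, SE 0.30, interval 0.735 to 1.84, edgeR adjusted p = 0.954), and without amyloid-β input replicate 2 the log2 difference was -0.06.

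So in input 0 of the 3 genes were called, against 0% of 13793 genes tested by edgeR (0 genes, with 188 at an unadjusted p under 0.05). DESeq2 also called 0. With a block for the replicate number edgeR called 0 as well, but 1625 genes had an unadjusted p under 0.05. Counting the near-level Egr1 pair of number 3, all 3 were higher with amyloid-β in 3 of 3 pairs, as were 19% of the genes tested. Among all genes, 28.3% had a higher log2 fold change than Fos, 19.4% than Jun and 30.5% than Egr1. Whether the intervals reach a doubling depended on the fit: their upper ends for Fos, Jun and Egr1 were 1.66-, 1.79- and 1.60-fold with the replicate block, and 2.25-, 2.41- and 2.15-fold with library sizes alone.

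**Figure D1:**
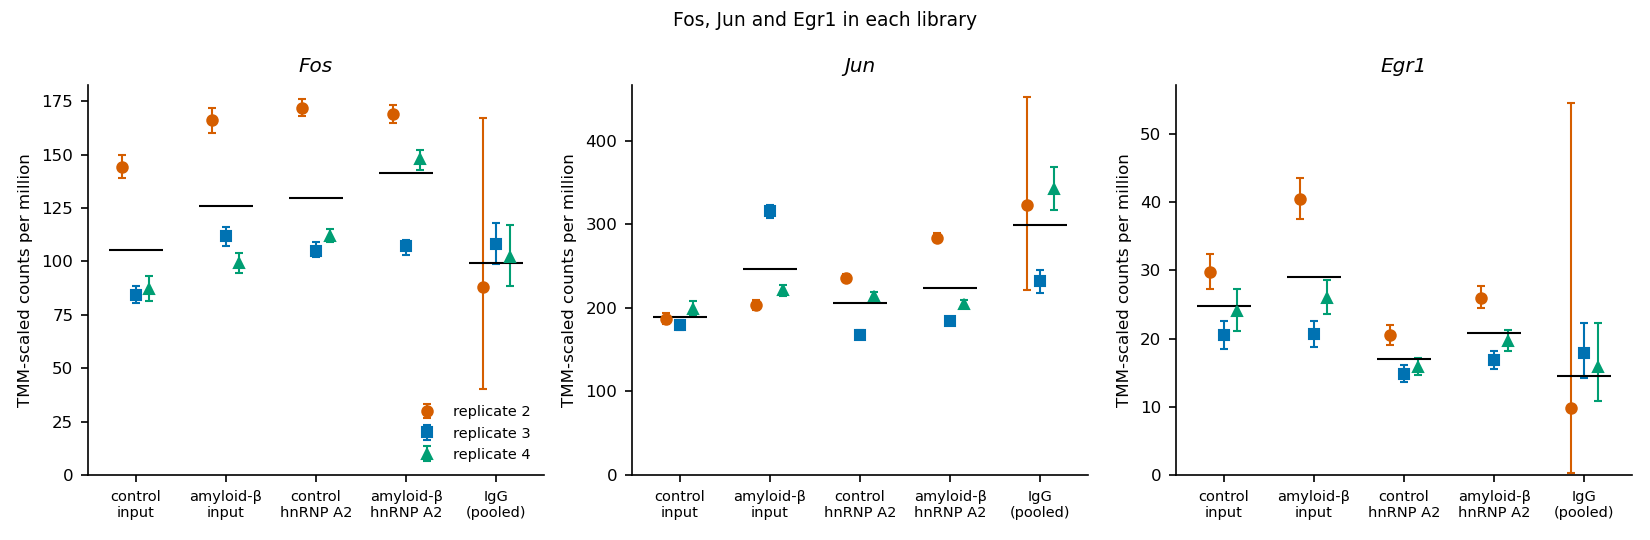
Level of Fos, Jun and Egr1 (TMM-scaled CPM, axes from 0) in each of the 15 libraries, by group. Points are libraries with exact 95% Poisson intervals, colour and shape give the replicate number, and black lines are group means; Fos and Egr1 are highest in replicate 2 of each input and hnRNP A2 group, Jun in input is highest in amyloid-β replicate 3, and IgG replicate 2 has the widest intervals.

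Fos and Jun were close to level between treatments in the hnRNP A2 libraries, with neither passing the test. Fos was at 172, 105 and 112 CPM in control replicates 2, 3 and 4 and at 169, 107 and 148 CPM with amyloid-β, so that the pair of number 4 alone stood apart (1.09-fold, interval 0.721 to 1.64, edgeR adjusted p = 1). Jun was at 236, 168 and 214 CPM in control and 284, 184 and 205 CPM with amyloid-β (1.09-fold, interval 0.767 to 1.55, edgeR adjusted p = 1). Without amyloid-β hnRNP A2 replicate 2 both log2 differences were below 0, at -0.04 for Fos and -0.09 for Jun.

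Egr1 was the one gene of the 3 that was higher with amyloid-β in each pair of hnRNP A2 libraries. It read 20.5, 14.8 and 15.8 CPM in control replicates 2, 3 and 4 and 26.0, 16.8 and 19.6 CPM with amyloid-β, higher within pairs by 1.27-, 1.13- and 1.24-fold. The groups overlapped, and the fit gave 1.22-fold (log2 0.29, SE 0.22, interval 0.859 to 1.74, edgeR adjusted p = 1). Blocking on replicate number, the interval narrowed to 1.06 to 1.39 (1.21-fold, unadjusted p = 0.00695), but the edgeR adjusted p over all genes was 0.687. Calls were 0 of 3 here, against 0% of 15118 genes (0 genes, with 42 at an unadjusted p under 0.05; DESeq2 also called 0), and 13.4% of genes were higher in 3 of 3 pairs. A log2 fold change above that of Egr1 was seen at 6.24% of genes.

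An interaction term tested whether the amyloid-β difference was itself different between immunoprecipitate and input. It was -0.15 (SE 0.42) for Fos, -0.29 (SE 0.35) for Jun and 0.05 (SE 0.38) for Egr1 on the log2 scale, each with an edgeR adjusted p of 1, and 0% of 15303 genes were called (0 genes, with 125 at an unadjusted p under 0.05; DESeq2 called 0). The 95% intervals ran from 0.484- to 1.68-fold for Fos, from 0.484- to 1.39-fold for Jun and from 0.585- to 1.83-fold for Egr1. With the replicate block they ran from 0.614- to 1.33-fold for Fos, from 0.491- to 1.34-fold for Jun and from 0.727- to 1.5-fold for Egr1. The blocked interaction called 0 genes, with 279 at an unadjusted p under 0.05.

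**Figure D2:**
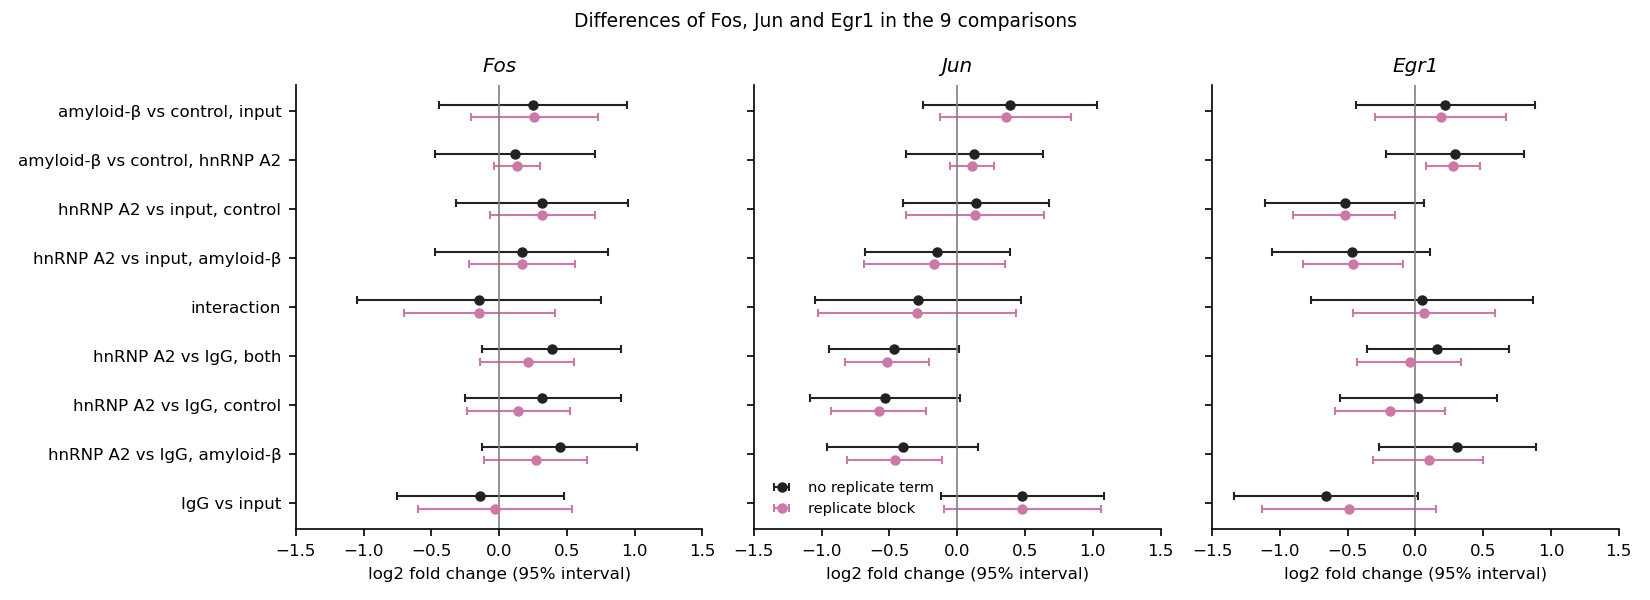
Log2 fold change with its 95% interval for Fos, Jun and Egr1 in each of the 9 comparisons, fitted without a replicate term (black) and with a block for the replicate number (pink). Without the block every interval reaches 0; with it, the intervals of Egr1 in the hnRNP A2 immunoprecipitation against input and of Jun against IgG lie below 0, and that of Egr1 with amyloid-β in the hnRNP A2 libraries lies above 0 without passing adjustment over all genes.

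Relative to input, the TMM-scaled Egr1 level was lower in the hnRNP A2 libraries, a difference that passed the test only with the replicate block and had the opposite sign with library sizes alone. Egr1 was at 24.7 ± 4.66 CPM (SD, n = 3) in control input and at 17.0 ± 3.02 CPM (SD, n = 3) in the control immunoprecipitation, and within pairs the ratio was 0.690, 0.725 and 0.658 in replicates 2, 3 and 4. With amyloid-β the means were 29.0 ± 10.3 CPM (SD, n = 3) and 20.8 ± 4.74 CPM (SD, n = 3), and the ratios 0.644, 0.815 and 0.754. All 6 ratios were below 1. Ratios below 1 in 3 of 3 pairs were common, at 34.6% of genes in control and 30.7% with amyloid-β.

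Without a replicate term the Egr1 difference did not pass, at 1.44-fold lower in control (log2 -0.52, SE 0.27, edgeR adjusted p = 0.148) and 1.39-fold lower with amyloid-β (log2 -0.47, SE 0.27, edgeR adjusted p = 0.184). With the replicate block it passed in both, at -0.52 (SE 0.17, edgeR adjusted p = 0.0226) and -0.46 (SE 0.17, edgeR adjusted p = 0.0388). Calls were made at 37.4% of 15303 genes in control and 39.1% with amyloid-β without the block, and at 48.8% and 50.4% with it, so a call was an ordinary outcome. The control call was lost without control input replicate 3 or 4 or control hnRNP A2 replicate 2 or 4 (edgeR adjusted p = 0.0524, 0.0652, 0.0946 and 0.107). The amyloid-β call was lost in 8 of 12 such fits: without amyloid-β input replicate 2 or 4 (edgeR adjusted p = 0.162 and 0.0866) or any 1 hnRNP A2 library, where it was 0.0588 to 0.114.

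Fos and Jun did not pass in either treatment, with or without the block. Fos was 1.25-fold higher in the control immunoprecipitation than in control input (interval 0.802 to 1.93, edgeR adjusted p = 0.428) and 1.12-fold higher with amyloid-β (interval 0.723 to 1.74, edgeR adjusted p = 0.685). Jun was at 1.10-fold in control (interval 0.759 to 1.60, edgeR adjusted p = 0.696) and 0.902-fold with amyloid-β (interval 0.622 to 1.31, edgeR adjusted p = 0.670). These sit near the middle of all genes: a larger absolute log2 fold change was seen at 77.2% of genes for Fos and 89.9% for Jun in control. Amyloid-β input replicate 3, the library with the high Jun level, set the sign for Jun with amyloid-β, which was 0.11 on the log2 scale without it.

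Scaling moved these values together with those of all genes. With library sizes alone, the median log2 fold change of all genes against input was 0.65 in control and 0.48 with amyloid-β, Egr1 turned to 0.13 and 0.02, Jun with amyloid-β to 0.35, and Fos (0.98, edgeR adjusted p = 0.0230) and Jun (0.78, edgeR adjusted p = 0.0359) passed in control, as 43.4% of genes did. Relative to that median, Egr1 stood at -0.52 and -0.45, Fos at 0.32 and 0.19, and Jun at 0.13 and -0.13.

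**Figure D3:**
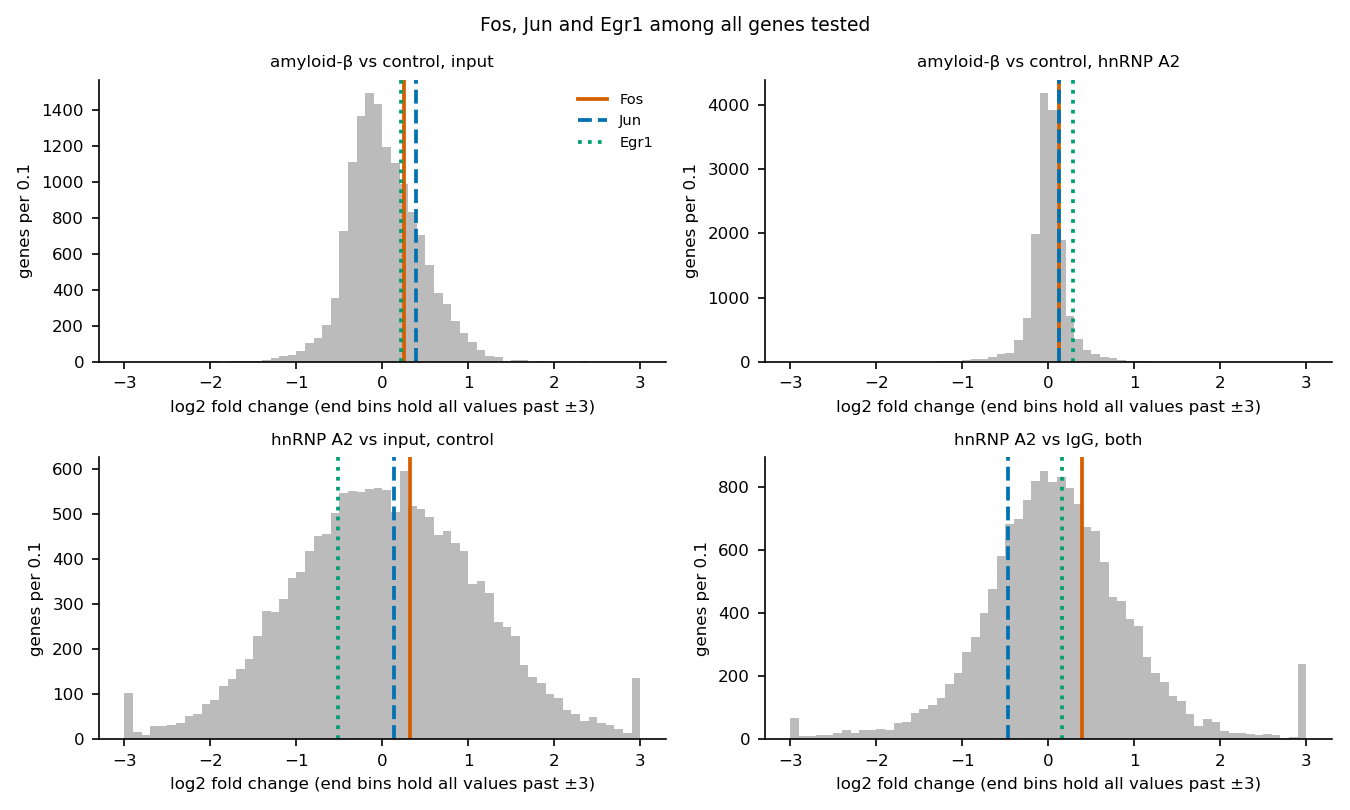
Distribution of log2 fold changes over all genes tested (grey bars, genes per bin of 0.1) in 4 comparisons, with Fos (solid orange), Jun (dashed blue) and Egr1 (dotted green) as vertical lines. The genes lie within each distribution, with Egr1 toward its right edge for treatment in the hnRNP A2 libraries, where Fos and Jun coincide at 0.12; the distribution is narrow between treatments in the hnRNP A2 libraries and broad between immunoprecipitation and input.

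The TMM-scaled Jun level was higher in the IgG libraries than in the hnRNP A2 ones, again past the test only with the replicate block. The IgG libraries held 323, 232 and 342 CPM of Jun in replicates 2, 3 and 4. The control hnRNP A2 library of the same number was lower each time, at 0.732, 0.727 and 0.626 of the IgG level, and so was the amyloid-β one, at 0.882, 0.794 and 0.600. The groups overlapped across numbers, since hnRNP A2 replicate 2 of either treatment lay above IgG replicate 3. Genes lower than IgG in 3 of 3 pairs made up 13.7% in control and 14.3% with amyloid-β.

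Over both treatments Jun was 1.38-fold lower with hnRNP A2 than with IgG without a replicate term, a fit that takes same-numbered libraries as independent (log2 -0.47, SE 0.22, edgeR adjusted p = 0.173, with 13.6% of 15304 genes called), and 1.43-fold lower with the block (log2 -0.52, SE 0.15, edgeR adjusted p = 0.00925, with 35.2% called). By treatment it was -0.53 (SE 0.25, edgeR adjusted p = 0.211, 6.72% called) in control and -0.40 (SE 0.25, edgeR adjusted p = 0.333, 7.53% called) with amyloid-β. With the block these were -0.58 (SE 0.17, edgeR adjusted p = 0.0120, 31.7% called) and -0.46 (SE 0.17, edgeR adjusted p = 0.0416, 32.4% called). Without the shallow IgG replicate 2 the blocked difference over both treatments was -0.56 (edgeR adjusted p = 0.00446). Leaving out IgG replicate 4 ended that call (-0.38, edgeR adjusted p = 0.0832), as did leaving out amyloid-β hnRNP A2 replicate 4 (-0.44, edgeR adjusted p = 0.0767).

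The blocked calls by treatment rested on more of the libraries. Without any 1 of these the control result no longer passed: IgG replicate 4 (edgeR adjusted p = 0.0667), each control hnRNP A2 library (0.0623 to 0.0763) or amyloid-β hnRNP A2 replicate 2 (0.0505). The amyloid-β result likewise needed IgG replicate 4 (edgeR adjusted p = 0.176 without it), each control hnRNP A2 library (0.0783 to 0.0891) and each amyloid-β hnRNP A2 library (0.0922 to 0.350).

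Fos and Egr1 were not separated from IgG. Fos was at 88.0, 108 and 102 CPM in IgG replicates 2, 3 and 4, a narrower spread than in any other group, and the hnRNP A2 libraries were 1.31-fold higher over both treatments (interval 0.914 to 1.87, edgeR adjusted p = 0.296). Only in number 2 did hnRNP A2 stand well above IgG in both treatments, by 1.95- and 1.92-fold, and there the IgG value rests on 9 counts. Egr1 was at 9.77, 17.9 and 15.8 CPM in IgG and 1.12-fold higher with hnRNP A2 (interval 0.779 to 1.61, edgeR adjusted p = 0.695); with the block its log2 difference was -0.04. None of the 3 genes was called as higher with hnRNP A2 than with the IgG background, in either treatment or over both, which was also the case for most genes. Without the block, 7.79% of genes were called higher over both treatments, 4.25% in control and 4.51% with amyloid-β. With the block these shares were 19.2%, 17.3% and 17.8%.

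Between IgG and input, with no pairing read from the numbers, none of the 3 genes passed. After TMM scaling each IgG library lay below each input library for Egr1, which was also the case for 21% of 14205 genes. The Egr1 value of IgG replicate 2 rests on 1 count. The fitted Egr1 level was 1.58-fold lower in IgG (log2 -0.66, SE 0.32, edgeR adjusted p = 0.132). It passed without amyloid-β input replicate 3 (-0.82, edgeR adjusted p = 0.0445). Jun was 1.40-fold higher in IgG than in input (log2 0.48, SE 0.28, edgeR adjusted p = 0.210) and Fos 0.911-fold (log2 -0.14, SE 0.29, edgeR adjusted p = 0.766). Calls were made at 30.6% of genes. With library sizes alone, where the median gene moved to 0.33, Fos turned to 0.33 and Jun passed at 0.97 (edgeR adjusted p = 0.0170), as did 32.4% of genes. Egr1 stood at -0.23 there (edgeR adjusted p = 0.642), and its groups overlapped. Scaled by library size alone, IgG replicate 3 held 20.0 CPM of Egr1 and control input replicate 4 held 16.2 CPM.

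Ratios of 2 genes' counts in the same library need no scaling between libraries. The Egr1 to Fos ratio was 0.206, 0.242 and 0.276 in control input replicates 2, 3 and 4 and 0.244, 0.184 and 0.262 in amyloid-β input. It was 0.119, 0.141 and 0.142 in the control hnRNP A2 libraries, 0.154, 0.158 and 0.133 in the amyloid-β ones, and 0.111, 0.166 and 0.155 in IgG. Each immunoprecipitated library was thus below each input library, though the ratio of IgG replicate 2 rests on 1 Egr1 count and 9 Fos counts and is loose. The hnRNP A2 libraries were 1.66-fold below their inputs, in 6 of 6 pairs. Since libraries of both treatments with 1 number are not independent, they were averaged before testing, which leaves 3 numbers (paired exact permutation test, 2-sided, p = 0.25, the smallest that 3 pairs allow, adjusted p = 0.562 over 15 tests). IgG was 1.65-fold below input (exact permutation test, p = 0.1, the smallest for 3 against 3, adjusted p = 0.5). With each library left out in turn, the log2 difference of IgG from input ranged from -0.83 to -0.54. Between hnRNP A2 and IgG the ratio was 0.991-fold (paired exact permutation test, p = 1, adjusted p = 1). None of these designs could reach 0.05.

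The Fos to Jun ratio differed in another way. It was 0.523 to 0.728 in the 6 hnRNP A2 libraries and 0.273 (from 9 Fos and 33 Jun counts), 0.467 and 0.298 in IgG replicates 2, 3 and 4, without overlap. That is 1.86-fold higher with hnRNP A2 in all 3 numbers (paired exact permutation test, p = 0.25, again the smallest possible, adjusted p = 0.562). Against input, where it ranged from 0.354 to 0.814, the hnRNP A2 libraries were 1.19-fold higher, in 4 of 6 pairs (paired exact permutation test over 3 numbers, p = 0.5, adjusted p = 0.75). Within pairs amyloid-β moved neither ratio in 1 direction, in input or in the hnRNP A2 libraries. The Egr1 to Jun ratio in the hnRNP A2 libraries was 0.0868, 0.0880 and 0.0740 in control and 0.0916, 0.0914 and 0.0955 with amyloid-β, without overlap (1.12-fold, unpaired exact permutation test, p = 0.1, the smallest possible for it, adjusted p = 0.5). That test sets aside the pairing by number read between these libraries, and a paired test of 3 numbers could not go below 0.25. Between treatments there, the groups overlapped for Fos per Jun and for Egr1 per Fos. In input the Egr1 to Jun ratio was 0.888-fold with amyloid-β, higher in 1 of 3 pairs, with overlap. Over both treatments this ratio was 1.40-fold lower with hnRNP A2 than in input and 1.84-fold higher than in IgG. In IgG it was 2.57-fold below input. These 3 comparisons overlapped too (exact permutation tests, adjusted p = 0.75, 0.562 and 0.5). How often ratios of other gene pairs separate was not examined.

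**Figure D4:**
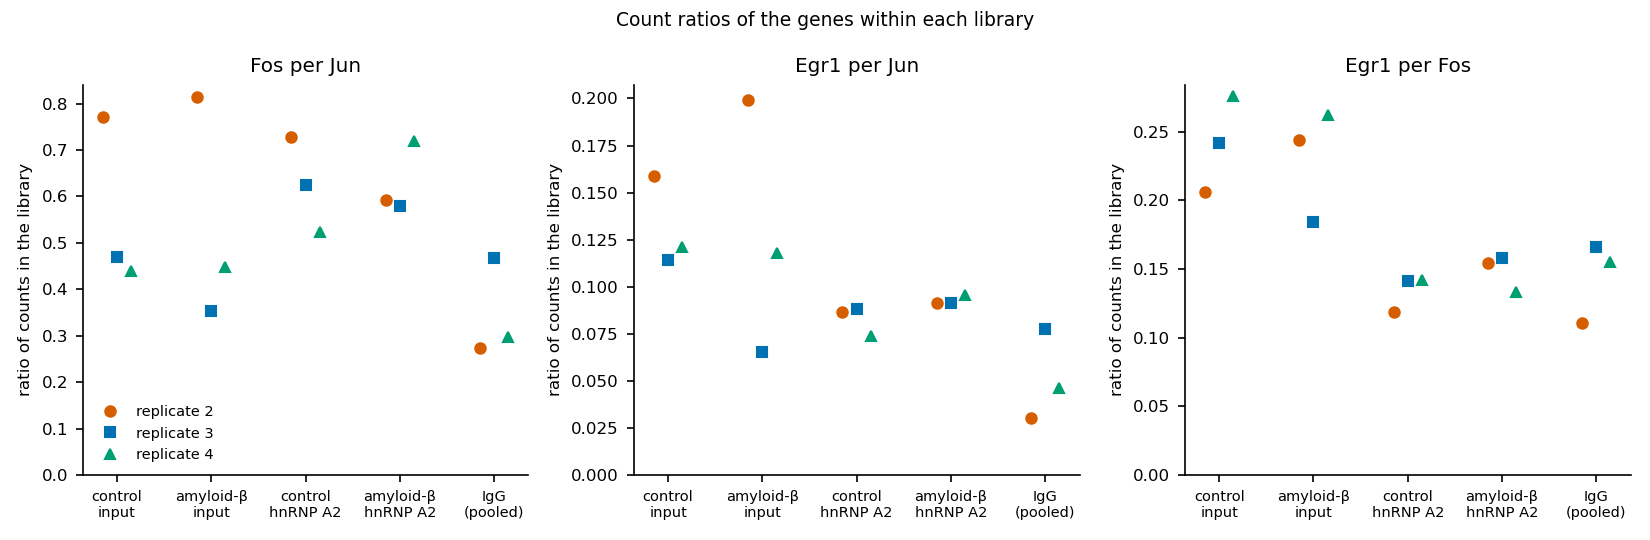
Ratio of counts of 2 genes within each library (axes from 0), by group, with colour and shape for the replicate number. Egr1 per Fos lies between 0.184 and 0.276 in input and between 0.111 and 0.166 in the hnRNP A2 and IgG libraries. Fos per Jun is below 0.5 in the 3 IgG libraries and above it in the 6 hnRNP A2 libraries. The ratios of IgG replicate 2 rest on 1 Egr1 count, 9 Fos counts and 33 Jun counts.

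Fos and Egr1 differed between replicate numbers past the test, which Jun did not. Replicate 2 had the highest Fos and the highest Egr1 level in each of the 4 input and hnRNP A2 groups, and for Egr1 replicate 4 came before replicate 3 in each. For Fos this order held in 3 groups, amyloid-β input being the exception. Jun had the order 2, 4, 3 in both hnRNP A2 groups and in neither input group. In a fit of these 12 libraries with group and replicate number, replicate 3 was below replicate 2 by a log2 difference of -0.67 for Fos and -0.65 for Egr1, and replicate 4 by -0.56 and -0.43. The replicate term passed for Fos (edgeR adjusted p = 0.0134) and Egr1 (edgeR adjusted p = 0.0171) and not for Jun (range 0.13, edgeR adjusted p = 0.883), and it passed at 17.3% of genes. The test was added after this order had been seen, and libraries of 1 number are not independent. The Fos call was lost without control input replicate 2 (edgeR adjusted p = 0.0757) or control hnRNP A2 replicate 2 (0.0784). The Egr1 call was lost without amyloid-β input replicate 2 (edgeR adjusted p = 0.0788), control hnRNP A2 replicate 2 (0.0591) or amyloid-β hnRNP A2 replicate 2 (0.0863). What the replicates differ in is not in the labels, and its part in these levels was not tested.

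Ordered by mean, Fos ran from 99.4 CPM in IgG through 105 in control input, 126 in amyloid-β input and 130 in control hnRNP A2 to 141 in amyloid-β hnRNP A2. Jun ran from 189 CPM in control input through 206 in control hnRNP A2, 225 in amyloid-β hnRNP A2 and 247 in amyloid-β input to 299 in IgG. Egr1 ran from 14.5 CPM in IgG through 17.0 in control hnRNP A2, 20.8 in amyloid-β hnRNP A2 and 24.7 in control input to 29.0 in amyloid-β input. Neighbours in each order overlapped in range, so no step between neighbours exceeded the spread of the libraries.

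Taken over the 12 input and hnRNP A2 libraries together, the 3 genes did not share 1 pattern. Within each hnRNP A2 group alone, all 3 ran from replicate 2 through 4 down to 3, while in input their orders differed. Among 9030 genes with a mean of at least 10 CPM, the gene most like Fos by Pearson's r of log2(CPM + 0.5) was ENSRNOG00000062419 (r = 0.96, n = 12 libraries). For Jun it was ENSRNOG00000003858 (r = 0.94), which had a mean of 21.7 CPM in amyloid-β input and 14.3 CPM in control input. For Egr1 it was ENSRNOG00000013152 (r = 0.94), with a mean of 17.7 CPM in control input and 10.3 CPM in control hnRNP A2. Between the members r was 0.42 for Fos with Egr1, 0.35 for Fos with Jun and 0.16 for Jun with Egr1, and Egr1 ranked 1490 in likeness to Fos. These values describe libraries that share replicate numbers, depth and scaling, and they also carry the differences between input and hnRNP A2 libraries.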

How the data were processed

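The deposited files hold raw read counts, whole numbers per Ensembl gene identifier that the authors had not normalized. STAR 2.7.1, HTSeq, R 4.2.2 and DESeq2 are named without a role, per the submitters' processing notes. Genome build, annotation and strand setting were not given in the sources used here. Whether reads of overlapping or antisense genes were told apart is therefore not known. The 5 summary rows per file, 65.5% to 91.4% of records, were left out. Groups came from titles, and libraries were made with a stranded low-input kit, per the labels' protocols.

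Tests across all genes used edgeR 4.0.16 in R 4.3.3: TMM scaling after filterByExpr, the quasi-likelihood F test with no replicate term, and a Benjamini-Hochberg adjusted p under 0.05 as the threshold. The treatment comparisons used their own 6 libraries; immunoprecipitated, input and IgG libraries were otherwise fitted 2 kinds at a time. Some unblocked edgeR comparisons and the replicate term were also run on simulated counts with a fixed dispersion and no shared replicate effect. The changed genes there were drawn from those above a minimum level. Not simulated were the interaction, hnRNP A2 against input with amyloid-β and hnRNP A2 against IgG by treatment. The blocked comparisons and the permutation tests were not simulated either. Between treatments, simulated 2-fold changes were found at 51 of 100 genes in input and 54 of 100 in the hnRNP A2 libraries, and 4-fold changes at 100 of 100 in both. Alternatives were DESeq2 1.42.0, its size factors, library sizes alone, no filter, all 15 libraries in 1 fit, the replicate block and leaving out each library. The count ratios and the test of the replicate number were added after seeing the data. Ratios were compared by 2-sided exact permutation tests over replicate numbers, paired by number except between treatments and between IgG and input.

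Replicate numbers were read as pairing libraries wherever every same-numbered pair of deviations from group means correlated over 0.1. This was 0.45 to 0.65 between treatments in input, 0.53 to 0.79 in the hnRNP A2 libraries, at least 0.15 between hnRNP A2 and input or IgG, and down to -0.08 between IgG and input, which was not read as paired. Differently numbered libraries correlated at up to 0.30 between input and hnRNP A2 with amyloid-β and 0.17 between amyloid-β hnRNP A2 and IgG, above the lowest same-numbered values of 0.15 and 0.16, so the pairing behind the block is weak there. The genes, the lists and the rule for named genes were chosen with earlier results of these data known. The rule names these genes throughout and, as no table pairs identifiers with names, 1 identifier of most similar pattern for each. The RefSeq table gave 0 Ensembl identifiers, so lists by symbol and cell type markers were not used here. RefSeq GRCr8 gave the promoter.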

Additional observations from a re-analysis of the deposited data

How the results depend on the processing

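Of 162 refits of the single-gene differences under other tools, scalings, filters, the replicate block or 1 fit of all libraries, 147 kept direction and side of the threshold, 8 newly passed and 7 changed sign. Of 252 refits without 1 library, 234 kept both, 1 newly passed and 17 changed sign. All values here are log2 differences unless called counts of genes, and the causes of these changes were not tested. With library sizes alone, immunoprecipitate against input gave 0.98 for Fos, 0.78 for Jun and 0.13 for Egr1 in control, and 0.35 for Jun and 0.02 for Egr1 with amyloid-β; the interaction was -0.11 for Egr1, and IgG against input was 0.33 for Fos and 0.97 for Jun. With the replicate block, Egr1 against input passed at -0.52 in control and -0.46 with amyloid-β. Jun against IgG passed at -0.52 over both treatments, -0.58 in control and -0.46 with amyloid-β, while Egr1 against IgG turned to -0.04 over both and -0.19 in control. The block raised the genes called from 0 to 1 between treatments in the hnRNP A2 libraries and to 5392, 4854 and 4963 against IgG (both treatments, control, amyloid-β), and it changed no other call of these genes. With all 15 libraries in 1 fit, 583 genes were called in control and 666 with amyloid-β against IgG. Leaving out each library in turn, Egr1 with amyloid-β in input ranged from -0.06 to 0.40. In the hnRNP A2 libraries Fos ranged from -0.04 to 0.39 and Jun from -0.09 to 0.25. Jun against input with amyloid-β ranged from -0.37 to 0.11, the interaction from -0.43 to 0.12 for Fos and -0.16 to 0.33 for Egr1, Egr1 against IgG in control from -0.13 to 0.19, and Egr1 in IgG against input from -0.87 to -0.53. Genes called against IgG ranged from 21 to 2428 over both treatments, 0 to 1943 in control and 0 to 1944 with amyloid-β. IgG replicate 4 left out gave the lowest count each time, shared in control with control hnRNP A2 replicate 3 (0), while control hnRNP A2 replicate 4 left out gave 2 there and amyloid-β hnRNP A2 replicate 4 left out gave 3 with amyloid-β. For IgG against input the counts ranged from 2193 to 4806. Among results added after seeing the data, the Jun difference of replicate 3 from 2 ranged from -0.32 to 0.04. The amyloid-β difference of Fos per Jun ranged from -0.44 to 0.16 in input and -0.10 to 0.14 in the hnRNP A2 libraries. That of Egr1 per Jun in input ranged from -0.56 to 0.24 and of Egr1 per Fos from -0.18 to 0.08, and Egr1 per Fos between hnRNP A2 and IgG from -0.19 to 0.10. Depth limits the values of IgG replicate 2, which held 81463 counts; without it 2372 genes were called against IgG over both treatments.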
